A study of Mus musculus with 10 samples.

Results

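Voltage-gated sodium channel subunit genes were followed in Neuro2a cells, a mouse neuroblastoma line, that carried a repressor directed at SCN9A or a control plasmid. The genes are Scn9a and 7 relatives chosen by name: the alpha subunit genes Scn1a, Scn2a, Scn3a, Scn4a, Scn7a and Scn8a, and the beta subunit gene Scn3b. They were found by matching Ensembl identifiers to symbols of the GENCODE M21 annotation and make up 8 of the 55401 genes listed in each library. The rule uses names, not measured values, though the names were chosen with earlier results of these data known. RNA sequencing was done on 10 libraries. Cells labelled wild-type received 0.5 µg of plasmid with Lipofectamine 2000 and were collected 72 h later.

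The first repressor, dCas9-SCN9A, is a Cas9 without DNA cleavage that is directed at SCN9A (3 libraries), and its control is dCas9-empty (3 libraries). The second, ZF-SCN9A, is a zinc-finger protein, an engineered DNA-binding protein, directed at the same gene (2 libraries). mCherry, a red fluorescent protein (2 libraries), was taken as its control, since it is the remaining plasmid of the series. Every group is a transfected population of 1 cell line, and cells that took up no plasmid were not separated from those that did. In such bulk RNA, fewer cells that express a gene and less RNA per cell cannot be told apart. The sites bound by either repressor, the repressor domains and what dCas9-empty lacks are not stated in the labels used here.

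Voltage-gated sodium channels open when a membrane depolarises and carry the inward current that starts an action potential. The pore is formed by a single large alpha subunit, and smaller beta subunits change its gating and its delivery to the membrane. Scn9a encodes NaV1.7, which in sensory neurons amplifies small depolarisations, and loss of the human gene's function abolishes the sense of pain. Scn1a, Scn2a, Scn3a and Scn8a encode the alpha subunits best known from the brain, Scn4a that of skeletal muscle, and Scn7a an atypical relative described as a sensor of extracellular sodium.

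The members fell into 2 kinds of location in GRCm38. Scn9a (ENSMUSG00000075316) lies on the minus strand of chr2:66480080-66634962. The same chromosome holds Scn1a (ENSMUSG00000064329, minus strand, chr2:66270778-66440840), whose annotated start is 194.1 kb from that of Scn9a. It also holds Scn7a (ENSMUSG00000034810, minus strand, chr2:66673425-66784914), whose start is 150.0 kb away on the other side. Scn2a (ENSMUSG00000075318, plus strand, chr2:65620771-65767447) starts 1014.2 kb away and Scn3a (ENSMUSG00000057182, minus strand, chr2:65457118-65567627) starts 1067.3 kb away. The remaining members are on other chromosomes. They are Scn4a (ENSMUSG00000001027, minus strand, chr11:106318592-106353288), Scn8a (ENSMUSG00000023033, plus strand, chr15:100869858-101045938) and Scn3b (ENSMUSG00000049281, plus strand, chr9:40269217-40291618). All 8 are annotated as protein coding.

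The stretch just before the Scn9a start is shown with those of its nearest relatives on either side, since repressors directed at a gene are often placed near its start. Each is the 250 bases before the start in RefSeq's GRCm38.p6 annotation, on the gene's own strand, 5′ to 3′, and capitals mark CpG dinucleotides.
Scn9a, chr2:66634963-66635212, minus strand: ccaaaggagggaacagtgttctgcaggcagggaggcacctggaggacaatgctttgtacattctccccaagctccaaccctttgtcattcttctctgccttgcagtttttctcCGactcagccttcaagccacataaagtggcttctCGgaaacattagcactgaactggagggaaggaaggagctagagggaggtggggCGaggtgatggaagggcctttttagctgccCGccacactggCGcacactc
Scn1a, chr2:66440838-66441087, minus strand: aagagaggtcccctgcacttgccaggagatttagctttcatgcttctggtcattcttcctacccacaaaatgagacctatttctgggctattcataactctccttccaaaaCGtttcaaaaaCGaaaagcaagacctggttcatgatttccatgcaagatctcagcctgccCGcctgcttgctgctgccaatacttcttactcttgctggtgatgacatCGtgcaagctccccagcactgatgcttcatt
Scn7a, chr2:66784911-66785160, minus strand: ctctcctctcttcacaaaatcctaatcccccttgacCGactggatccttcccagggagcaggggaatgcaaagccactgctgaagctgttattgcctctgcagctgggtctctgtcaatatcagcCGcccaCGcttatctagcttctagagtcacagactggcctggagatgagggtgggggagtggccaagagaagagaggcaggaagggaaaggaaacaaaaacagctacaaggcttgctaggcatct
The Scn9a stretch holds 5 CpG dinucleotides and is 54.4% G or C, against 4 and 46.8% for Scn1a and 3 and 53.2% for Scn7a. Over the 32851 promoters of the table the median was 6 CpG dinucleotides, and 55.6% held at least as many as Scn9a. The longest run of bases that the Scn9a stretch shares with Scn1a is 10 bases, and with Scn7a 8 bases. Promoter entries were found for 6 of the 8 members. Scn3a and Scn3b had none.

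Members differ in how much sequence they share, which bears on how reads can be given to them. Of all 50-base words in its annotated transcripts, Scn9a shared 4.04% with other sodium channel genes, Scn3a 6.49%, Scn2a 5.63% and Scn1a 4.03%. For Scn4a the share was 0.072% and for Scn8a 0.0374%, and Scn7a and Scn3b shared none. Values of Scn9a, Scn3a, Scn2a and Scn1a therefore carry a small share of sequence that could be split between them, and STAR counts no read that maps to several places.

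The dCas9 libraries held between 15.4 M and 19.0 M gene counts (M, 1e6) and the zinc-finger arm between 4.41 M and 7.48 M, so the second arm measures low genes less precisely. Markers of the line were as labelled: 9 of 10 neuroblastoma markers reached 1 CPM on average in every group. Here CPM are counts per 1e6 counts of a library, with the library size adjusted within each arm (TMM scaling). The neuroblastoma list summed to between 2397 and 2891 CPM. Immune markers summed to at most 0.453 CPM, fibroblast markers to between 8.12 and 21.5 CPM, glial markers to between 23.6 and 37.4 CPM and endothelial markers, almost all of it Pecam1, to between 14.4 and 24.1 CPM. The sensory neuron markers Scn10a and Scn11a had at most 2 reads in any library. The part of these marker levels in the results was not tested. Transcripts of the dCas9 plasmid were listed at 0 counts in all 4 libraries of the zinc-finger arm.

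Neuro2a cells expressed a mixed set of sodium channel genes. Levels between genes are compared as CPM per kb of annotated exon. In dCas9-empty, Scn3b stood highest at 11.7 ± 0.503 CPM per kb (SD, n = 3), followed among the members by Scn9a at 6.12 ± 0.228, Scn8a at 4.64 ± 0.527, Scn3a at 2.51 ± 0.0612 and Scn2a at 1.51 ± 0.0312. The ranges of these neighbours did not overlap. Scn1a was lower, at 0.504 ± 0.0926 CPM per kb. Scn4a at 0.109 ± 0.0324 and Scn7a at 0.103 ± 0.0217 CPM per kb were lowest and overlapped each other. Scn9a was thus the most abundant alpha subunit RNA of the dCas9-empty cells. In mCherry, Scn9a at 4.65 ± 0.334 and Scn8a at 4.57 ± 0.0468 CPM per kb (SD, n = 2) overlapped.

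**Figure D1:**
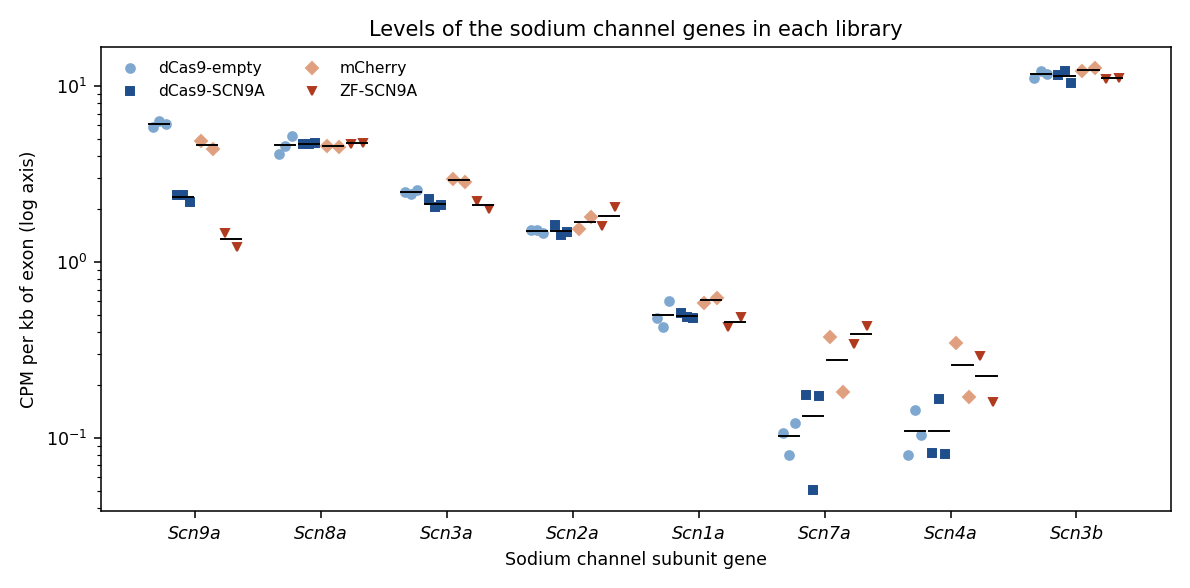
Level of each of the 8 genes in every library, in CPM per kb of exon on a log axis. Each point is 1 library, colour and shape give the group, and the black bar is the group mean. CPM were scaled within each arm, not across the arms. Scn9a is lower in every library of either repressor than in any control library, while the points of Scn8a and Scn3b lie close together across the groups.

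Scn9a, the target of both repressors, fell with both. In dCas9-empty its level was 75.3, 81.1 and 78.3 CPM (1338, 1519 and 1389 reads), and in dCas9-SCN9A it was 31.0, 30.9 and 28.2 CPM (479, 498 and 445 reads). All 3 repressor libraries lay far under all 3 controls. The change was -1.38 ± 0.066 on the log2 scale (SE), which leaves 38.4% of the control level (95% interval 34.8 to 42.3%; adjusted p = 2.2e-09 in edgeR's quasi-likelihood test). In mCherry it was 62.4 and 56.3 CPM (408 and 418 reads), and in ZF-SCN9A 18.8 and 15.7 CPM (119 and 69 reads). These groups did not overlap either. The change was -1.76 ± 0.14 on the log2 scale, which leaves 29.5% of the control level (95% interval 24.5 to 35.5%; adjusted p = 1.7e-34 in the same test). Permuting the libraries' log2 CPM (exact test, two-sided) gave p = 0.1 for dCas9 and p = 0.333 for the zinc finger, in each case the smallest that the number of libraries allows.

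Of the other 7 members, none was called changed with dCas9-SCN9A and Scn3a alone with ZF-SCN9A. With Scn9a, 1 of 8 members was called lower with dCas9, where 6 of 14628 genes tested were called in all (0.0410%), 0.0342% higher and 0.00684% lower. With the zinc finger 2 of 8 were called lower, where 4.72% of 12899 genes tested were called, 1.95% higher and 2.78% lower. No member was called higher with either repressor. The count at an unadjusted p under 0.05 was 2 of 8 in each arm, Scn9a and Scn3a both times, against 1476 of 14628 genes tested with dCas9 and 2087 of 12899 with the zinc finger. All 8 members passed the filter on low counts in both arms. The median change over the members was -0.01 with dCas9 and -0.14 with the zinc finger on the log2 scale, against 0.01 and 0.00 over all genes tested.

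**Figure D2:**
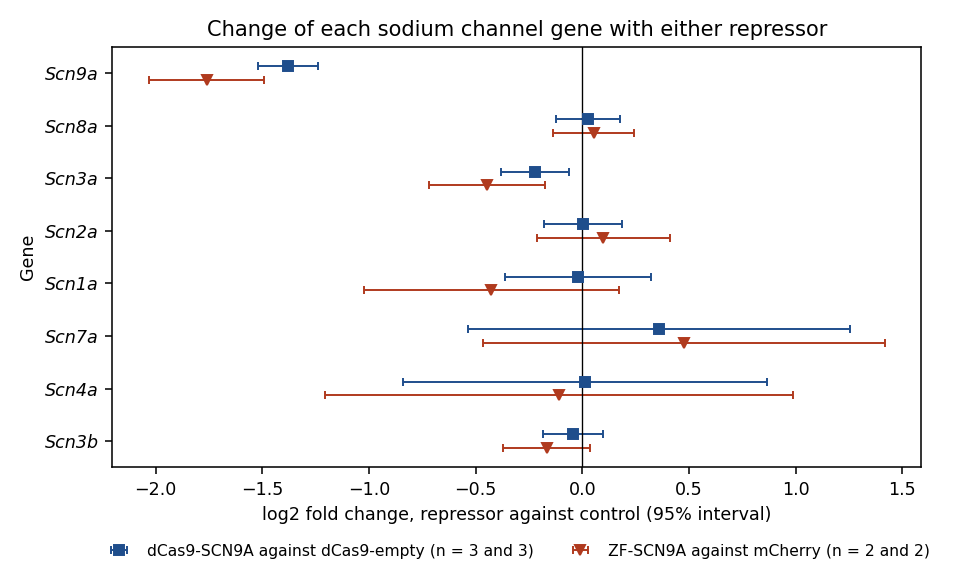
Log2 fold change of each gene with dCas9-SCN9A (blue squares, 3 against 3 libraries) and ZF-SCN9A (red triangles, 2 against 2), with the 95% interval of edgeR's fit. Scn9a stands apart at -1.38 and -1.76, Scn3a is the member next lowest with dCas9 at -0.22, and the intervals of Scn4a and Scn7a are wide.

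Scn3a encodes NaV1.3, an alpha subunit best known from the embryonic nervous system. Its level was 31.3, 30.5 and 32.0 CPM in dCas9-empty and 28.4, 25.6 and 26.4 CPM in dCas9-SCN9A. All repressor libraries were lower than all controls, a separation that 15.6% of the genes tested showed in this arm. The change of -0.22 ± 0.075 on the log2 scale (85.7% of control, 95% interval 76.7 to 95.7%) missed the threshold (adjusted p = 0.334, unadjusted p = 0.0087, edgeR). In mCherry the level was 37.3 and 35.4 CPM, and in ZF-SCN9A 27.9 and 25.2 CPM. These groups did not overlap, as for 45.6% of the genes tested in that arm. There Scn3a passed the test at -0.45 ± 0.14 on the log2 scale (73.4% of control, 95% interval 60.9 to 88.6%; adjusted p = 0.033 in edgeR's quasi-likelihood test). That call was lost when any 1 of the 4 libraries was left out (adjusted p between 0.0505 and 0.333). It was lost as well with DESeq2 (adjusted p = 0.482).

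Scn3a is one of the longer genes by annotated exon, with 12459 exon bases, and longer genes were slightly lower with both repressors. In the longest of 5 bins of length the median change was -0.059 on the log2 scale with dCas9 and the central 80% of genes lay between -0.189 and 0.0988. The zinc-finger arm had a median of -0.0354 and a range of -0.247 to 0.197. Across all genes tested, Spearman's rho between exon length and change was -0.348 with dCas9 and -0.124 with the zinc finger, as a description in which all genes share the same libraries. When the trend with length was removed, Scn3a stood at -0.14 with dCas9 and at -0.40 with the zinc finger (adjusted p = 0.0728, edgeR). Scn9a, with 12772 exon bases, then stood at -1.30 and -1.71 on the log2 scale.

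**Figure D3:**
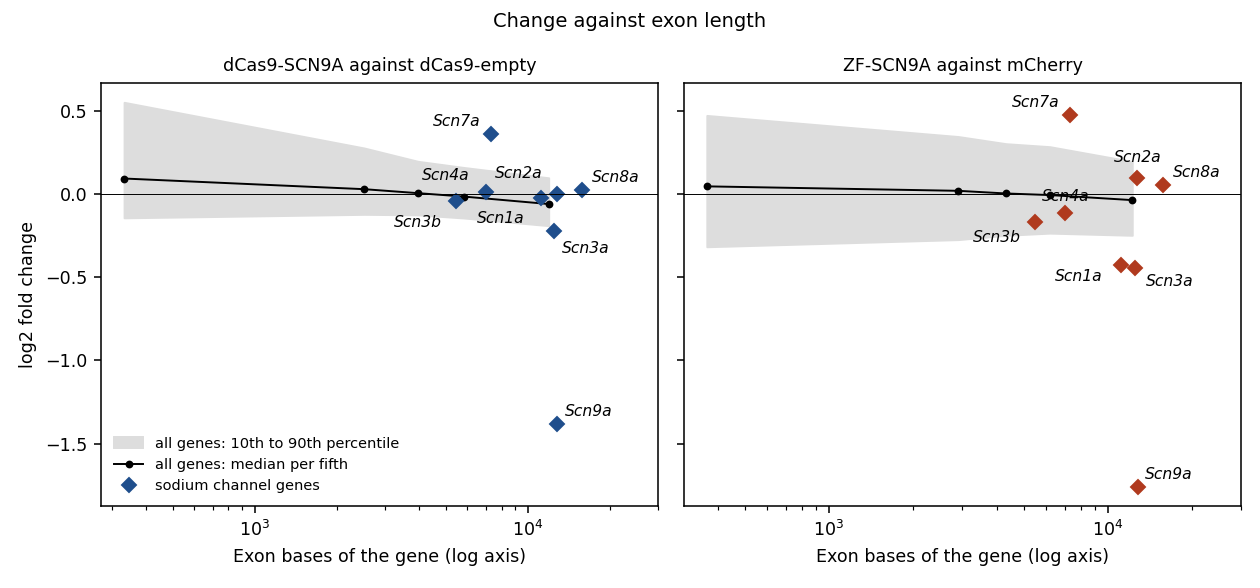
Log2 fold change against exon length (log axis) for the 8 genes (diamonds) in the dCas9 arm (left) and the zinc-finger arm (right). The line joins the medians of all genes tested in 5 bins of length, and the grey band spans their 10th to 90th percentile. Line and band end inside the longest bin, short of the lengths of Scn9a, Scn3a, Scn2a and Scn8a. Scn9a lies far under the 10th percentile of that bin in both arms, and Scn3a under it by less. Scn1a also lies under the band in the zinc-finger arm, and Scn7a lies above it in both arms, both on few reads.

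Scn8a and Scn3b were the best measured of the genes that passed no test. Scn8a encodes NaV1.6, the main alpha subunit at nodes of Ranvier and at the axon initial segment of mature neurons. It was at 65.5, 71.9 and 82.0 CPM in dCas9-empty and 74.53, 73.78 and 74.97 CPM in dCas9-SCN9A, so that the repressor libraries lay inside the range of the controls. In mCherry it was 72.6 and 71.6 CPM and in ZF-SCN9A 74.4 and 75.4 CPM. The zinc-finger libraries were higher by less than 4 CPM, without overlap, as for 45.6% of the genes tested in that arm. Its differences were 0.03 ± 0.071 and 0.05 ± 0.097 on the log2 scale (adjusted p = 0.939 and 0.858, edgeR). The 95% intervals hold it within 91.8 to 112.9% of control with dCas9 and 91.0 to 118.5% with the zinc finger.

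Scn3b encodes the beta-3 subunit, which is not a pore and associates with alpha subunits. It was at 61.2, 66.7 and 64.5 CPM in dCas9-empty and 63.2, 66.7 and 56.8 CPM in dCas9-SCN9A, and these ranges overlapped. In mCherry it was 67.0 and 69.0 CPM, and in ZF-SCN9A 60.3 and 60.8 CPM. These libraries did not overlap, as for 45.6% of the genes tested in that arm. The differences were -0.04 ± 0.067 and -0.17 ± 0.10 on the log2 scale (adjusted p = 0.885 and 0.442, edgeR). The 95% intervals were 88.0 to 107.1% of control with dCas9 and 77.4 to 102.4% with the zinc finger.

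Scn2a, which encodes NaV1.2 of central neurons, lies on the same chromosome as Scn9a and Scn3a. It was at 19.5, 19.4 and 18.8 CPM in dCas9-empty and 20.6, 18.3 and 18.9 CPM in dCas9-SCN9A. The zinc-finger arm had 19.7 and 23.2 CPM in mCherry and 20.4 and 26.3 CPM in ZF-SCN9A. Both pairs of groups overlapped. The differences were 0.00 ± 0.086 and 0.10 ± 0.16 on the log2 scale (adjusted p = 0.992 and 0.839, edgeR), with 95% intervals of 88.4 to 113.7% and 86.2 to 132.9% of control.

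The nearest relatives, Scn1a and Scn7a, bear on whether repression reached genes next to the target. Scn1a, which encodes NaV1.1 of inhibitory neurons, was at 5.34, 4.75 and 6.76 CPM in dCas9-empty and 5.76, 5.45 and 5.39 CPM in dCas9-SCN9A, with overlap. In the zinc-finger arm it was at 6.57 and 7.01 CPM in mCherry and 4.75 and 5.45 CPM in ZF-SCN9A. There the groups did not overlap, as for 45.6% of the genes tested in that arm. The differences were -0.02 ± 0.16 and -0.43 ± 0.31 on the log2 scale (adjusted p = 0.979 and 0.538, edgeR). With 24 to 52 reads a library in the zinc-finger arm, the 95% interval was wide, from 49.1 to 112.6% of control. It holds no change as well as a fall to 49.1%. With dCas9 it ran from 77.8 to 124.9%.

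Scn7a was near the limit of detection, with between 6 and 20 reads in every library. Its level was 0.788, 0.587 and 0.901 CPM in dCas9-empty and 1.29, 0.372 and 1.27 CPM in dCas9-SCN9A. It was 2.75 and 1.35 CPM in mCherry and 2.53 and 3.18 CPM in ZF-SCN9A. Both pairs of groups overlapped. The differences were 0.36 ± 0.42 and 0.48 ± 0.48 on the log2 scale (adjusted p = 0.834 and 0.704, edgeR), and the 95% intervals of 69.1 to 238.7% and 72.4 to 267.2% of control allow a rise above the control level by more than a factor of 2. Scn4a, on another chromosome, had 5 to 19 reads a library. Its levels overlapped in both arms, at 0.562 to 1.01 CPM against 0.571 to 1.18 CPM with dCas9 and at 1.21 to 2.45 CPM against 1.14 to 2.06 CPM with the zinc finger. Its differences were 0.01 ± 0.40 and -0.11 ± 0.56 on the log2 scale (adjusted p = 0.994 and 0.955, edgeR).

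The make-up of the alpha subunit RNA shifted with the fall of Scn9a. Scn9a held 39.8, 40.8 and 37.6% of the alpha subunit reads per kb in dCas9-empty and 20.5, 21.4 and 19.5% in dCas9-SCN9A. In the zinc-finger arm it held 31.5 and 29.7% in mCherry and 13.04 and 10.72% in ZF-SCN9A. The groups stood clear of each other in both arms. The mean went from 39.4 ± 1.62% to 20.4 ± 0.947% with dCas9 (SD, n = 3; exact permutation test, p = 0.1) and from 30.6 ± 1.27% to 11.9 ± 1.64% with the zinc finger (SD, n = 2; exact permutation test, p = 0.333). Both p-values are the smallest possible for these numbers of libraries, and they were 0.267 and 0.381 after Benjamini-Hochberg adjustment over the 8 permutation tests made of Scn9a levels, shares and alpha subunit totals. Scn8a held the largest share with either repressor, going from 29.7 ± 1.97% to 41.1 ± 1.06% with dCas9 and from 30.1 ± 0.610% to 41.8 ± 0.0558% with the zinc finger. In mCherry replicate 2 it was already over Scn9a, at 30.58% against 29.71%.

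**Figure D4:**
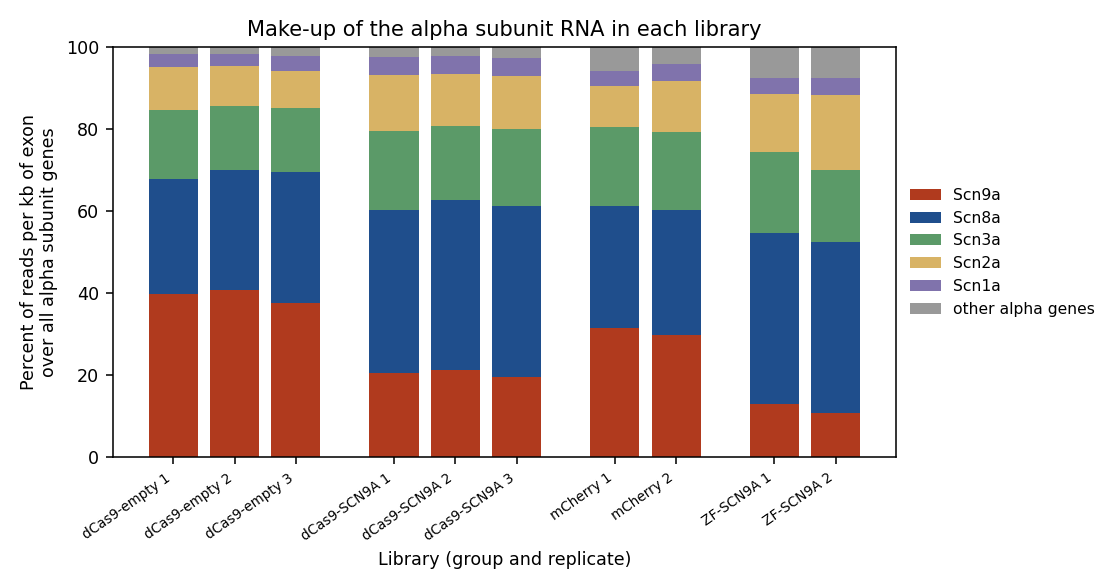
Share of each alpha subunit gene in the alpha subunit reads per kb of exon, 1 bar per library. Scn9a (red, at the base) goes from between 37.6 and 40.8% to between 19.5 and 21.4% with dCas9, and from about 30% to between 10.72 and 13.04% with the zinc finger.

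The share of Scn8a was higher although its level was called changed with neither repressor. The alpha subunit total was 15.6 ± 0.745 CPM per kb in dCas9-empty and 11.5 ± 0.308 in dCas9-SCN9A (73.9%), and 15.2 ± 0.463 in mCherry and 11.4 ± 0.0864 in ZF-SCN9A (74.98%). Without Scn9a the total was 9.44 ± 0.654 against 9.15 ± 0.272 CPM per kb with dCas9 (97.0%; exact permutation test over n = 3 and 3, p = 0.6). With the zinc finger it was 10.5 ± 0.129 against 10.0 ± 0.262 CPM per kb (95.3%; exact permutation test over n = 2 and 2, p = 0.333). With dCas9-SCN9A, Scn9a moved to the second place among alpha subunit genes and overlapped Scn3a, at 2.35 ± 0.122 against 2.15 ± 0.117 CPM per kb. With ZF-SCN9A it moved to the fourth place at 1.35 ± 0.176 CPM per kb, under Scn3a at 2.13 ± 0.152 and Scn2a at 1.84 ± 0.328, which overlapped each other.

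The size of the fall in Scn9a was compared between the repressors in a fit over all 10 libraries. Subtracting the zinc-finger change from the dCas9 change gave 0.39 ± 0.15 on the log2 scale (95% interval 0.09 to 0.69). It missed the threshold after adjustment over 15766 genes (adjusted p = 0.278, unadjusted p = 0.0131, edgeR), and 0 of 8 members were called different, where 0.907% of genes were (0.647% with a positive and 0.260% with a negative difference). At an unadjusted p under 0.05 the count was 1 of 8, Scn9a itself. The arms differ in control, depth and number of libraries, so a difference between the proteins themselves cannot be told apart from these. The controls were unlike each other. In mCherry Scn9a was at 71.0% of its dCas9-empty level (95% interval 63.6 to 79.2%; -0.50 ± 0.078 on the log2 scale, adjusted p = 1.2e-05, edgeR), and Scn7a was higher by 1.31 ± 0.46 on the log2 scale (adjusted p = 0.0264). The Scn7a call rests on few reads and was lost without mCherry replicate 1 (0.74 on the log2 scale, adjusted p = 0.423) and without dCas9-empty replicate 2 (1.15, adjusted p = 0.0772). These 2 of 8 members were called between the controls, as were 37.3% of all genes tested (17.2% higher in mCherry and 20.2% lower).

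Further sodium channel subunit genes were nearly silent. Scn10a and Scn11a, which encode the NaV1.8 and NaV1.9 of pain-sensing neurons, and the beta subunit genes Scn2b and Scn4b had between 0 and 2 reads in any library and were not tested.

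Genes whose proteins bind, anchor or control sodium channels were followed as a list of 20. With dCas9, 17 were tested and none was called, where 0.0410% of all genes were. At an unadjusted p under 0.05 there were 3 of these 17, against 1476 of all 14628 genes tested. The list's median was -0.09 on the log2 scale. Those with the smallest p-values encode ankyrins, the adaptors that hold sodium channels at the axon initial segment: Ank3 at -0.18 ± 0.055 and Ank2 at -0.23 ± 0.073 on the log2 scale (adjusted p = 0.282 and 0.319, edgeR). With the trend on exon length removed, Ank3 stood at -0.012 and Ank2 at -0.056, and without a filter on low counts Ank2 was called lower (-0.23, adjusted p = 0.0335). In the zinc-finger arm 16 were tested, 1 was called higher and 1 lower, where 4.72% of all genes were called. At an unadjusted p under 0.05 there were 4 of these 16, against 2087 of all 12899. The list's changes there ran from -0.86 to 1.22 on the log2 scale, with a median of -0.05. Ank3, at 0.11 ± 0.071 (adjusted p = 0.492), was called higher in that arm once the length trend was removed (0.22, adjusted p = 0.0375). Rest, the repressor of neuronal genes that is known for binding sodium channel genes, went from 50.1 and 56.6 CPM in mCherry to 38.8 and 42.0 CPM, a change of -0.41 ± 0.12 on the log2 scale (adjusted p = 0.0163, edgeR). Fgf11, a fibroblast growth factor homologous protein of the kind that binds channel tails, went from 1.99 and 2.56 CPM to 6.02 and 4.54 CPM, a rise of 1.22 ± 0.39 on the log2 scale (adjusted p = 0.0434, edgeR). The Fgf11 call was lost when any 1 library was left out (adjusted p between 0.0731 and 0.55). The Rest call was lost without mCherry replicate 2 (adjusted p = 0.181), without ZF-SCN9A replicate 1 (0.342) or without ZF-SCN9A replicate 2 (0.0767) and with DESeq2 (adjusted p = 0.389).

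The deposited counts also split reads by strand, with 50.03 to 50.22% of all reads in the first strand column of every library. The only gene whose exons overlap those of a member is Gm13629 (ENSMUSG00000087301), annotated antisense to Scn9a, with 180 shared bases or 1.41% of the Scn9a exons. Its unstranded count was 0 to 5 reads. In dCas9-empty the strand columns of Scn9a together held 50, 62 and 56 reads more than its unstranded column, and those of Gm13629 held 52, 62 and 56 more. A read over bases shared by both genes is left out of the unstranded column but is given to one of them in each strand column.

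For Scn9a the split between the strand columns differed slightly between repressor and control libraries, though no test of it passed. With all reads split almost evenly, the column of a read does not show which strand was transcribed. In dCas9-empty 51.3, 54.6 and 52.0% of its strand-assigned reads were in the first strand column, and in dCas9-SCN9A 49.0, 46.5 and 49.7% were. In mCherry the shares were 53.9 and 50.8%, and in ZF-SCN9A 50.4 and 45.8%. The repressor libraries were lower without overlap in both arms, by 4.28 and 4.23 percentage points. The share of all genes whose strand split separates the groups in this way was not computed. The exact permutation p-values of 0.1 and 0.333 (n = 3 and 3, n = 2 and 2) are the smallest these designs allow. They were 0.8 and 0.933 after adjustment over 12 such tests. For the other 5 members with enough reads, Scn3a, Scn2a, Scn8a, Scn3b and Scn1a, the groups overlapped in both arms. The fall of Scn9a was -1.51 and -1.25 on the log2 scale in the first and second strand columns with dCas9, and -1.85 and -1.64 with the zinc finger.

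**Figure D5:**
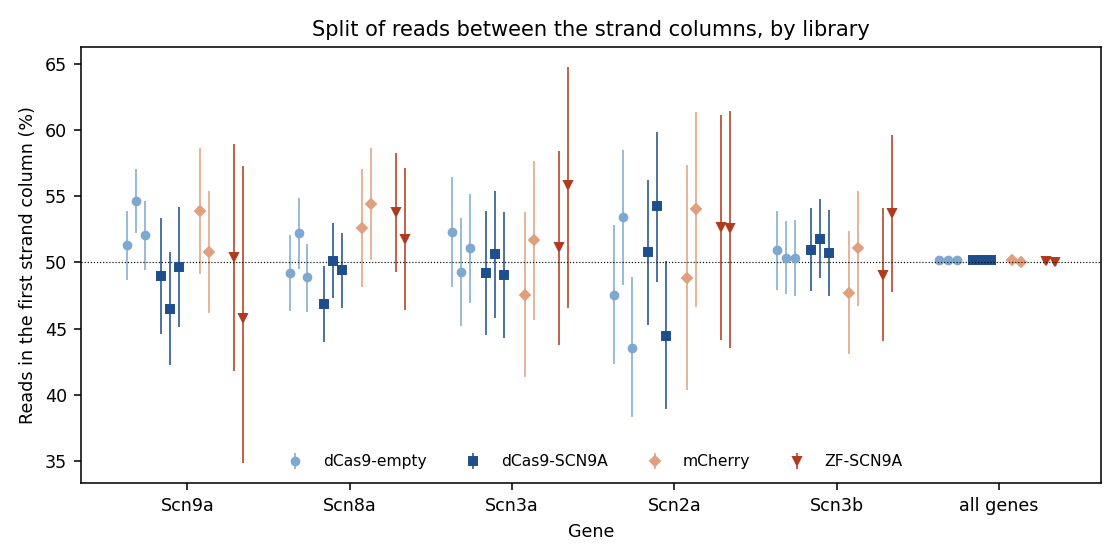
Percent of strand-assigned reads in the first strand column for 5 of the genes and for all genes, 1 point per library with its 95% Wilson interval (counting error only). The Scn9a interval includes 50% in every library but dCas9-empty replicate 2, and the repressor libraries sit lower than their controls.

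The genes whose levels most resembled that of Scn9a were sought among 9763 genes with a mean of at least 10 CPM. Log2 CPM was centred within each arm and correlated over the 10 libraries, which are also those in which Scn9a was repressed, so that the order describes which genes separate the same libraries. The highest were Sbno1 (r = 0.966), Anks1 (0.959), Snap23 (0.959), Map2k4 (0.954) and Tbck (0.949). Of the members, Scn3a came at rank 10 with r = 0.946, Scn3b had 0.636, Scn8a -0.265 and Scn2a -0.314. None of the 5 highest genes was called in either arm, but without a filter on low counts Tbck was called lower with dCas9 (-0.28, adjusted p = 0.0297, edgeR). Removing the length trend took Sbno1 from -0.19 to -0.069 and Anks1 from -0.12 to -0.061 with dCas9, and Sbno1 from -0.23 to -0.15 with the zinc finger. Without that correction the differences of the 5 ran from -0.11 for Map2k4 to -0.27 for Tbck with dCas9, and from -0.11 for Map2k4 to -0.36 for Snap23 with the zinc finger, on the log2 scale.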

How the data were processed

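The authors deposited a table of whole-number read counts for every library, without normalisation and laid out as STAR writes them (1 column that ignores strand, 2 that do not). The submitters' processing notes name STAR 2.7.3a, bcl2fastq 2.20 and DESeq2, and the build GRCm38. The annotation release is not given in the sources used here. Per the labels' protocols, libraries came from an RNeasy extract and a NEBNext Ultra II kit and were run on a NovaSeq. Of the 55401 identifiers, 55141 matched GENCODE M21 and 260 did not. Coordinates and exon lengths (union of annotated exons) are from that release. Entries naming no gene held 25.0 to 28.2% of reads and were left out, as were the plasmid entries.

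The unstranded counts of each arm were fitted alone with edgeR's quasi-likelihood test, with TMM scaling, robust fitting, a filter on low counts (filterByExpr), two-sided p-values and Benjamini-Hochberg adjustment over all genes tested. Adjusted p-values are from this test unless another tool is named, and genes under 0.05 are called. Standard errors and 95% intervals come from the fits. Residual degrees of freedom were 4 for dCas9, 2 for the zinc finger, 6 for the difference and 3 between the controls. For the zinc finger, 88% of genes had infinite prior degrees of freedom, so their p-values rest on spread shared across genes. Versions were R 4.3.3, limma 3.58.1 and edgeR 4.0.16. CPM values use TMM-adjusted library sizes over the genes tested in each arm. The arms were scaled apart, so CPM values of different arms are not on a common scale. Small tests were exact and two-sided. The fit was tested on simulated data with known changes. Alternatives were other scalings, filters, DESeq2 1.42.0, limma-voom, 1 fit of all libraries, the replicate block, a correction for exon length, the strand columns and each library left out.

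A chi-square test of counts found differences beyond sampling noise between replicates of every group. The labels do not say that replicates were separate cultures, so the p-values cover the spread among these libraries, which may be technical. Intervals of shares of reads cover counting error only. The members and gene lists were chosen with earlier results of these data known. All 8 members and 4 other subunit genes are named. Some items that the rule would name are not reported here. Of 20 channel partners, those called or the 2 of smallest p per arm are named, as are genes whose exons overlap a member and the 5 most like Scn9a.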

Additional observations from a re-analysis of the deposited data

Results flagged for a closer look

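Reads of a plasmid entry appeared in libraries whose labels name another plasmid. The mCherry entry held 7 reads in dCas9-empty replicate 1, 9 in dCas9-SCN9A replicate 1, 59 in ZF-SCN9A replicate 1 and 11 in ZF-SCN9A replicate 2. The entry of the zinc-finger plasmid held 35 reads in mCherry replicate 1 and 14 in mCherry replicate 2. For comparison, the entries named by the labels held 186301 and 216581 reads in mCherry and 246775 and 178465 in ZF-SCN9A. No sodium channel gene met a criterion for a closer look.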

How the results depend on the processing

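The fall of Scn9a passed the test under every alternative, between -1.40 and -1.33 with dCas9 and between -1.92 and -1.65 with the zinc finger on the log2 scale when each library was left out in turn. Its difference between the repressors stayed uncalled, at 0.276 to 0.547. The Scn9a share of alpha subunit reads changed by -19.85 to -18.26 points with dCas9 and by -19.89 to -17.57 points with the zinc finger.

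The count of other members called with the zinc finger, 1 in the report (Scn3a), was 0 with DESeq2, the exon length correction and either strand column, and 0 to 0 when 1 library was left out. Members called between the controls, 2 in the report, were 1 with DESeq2 and with the second strand column, 3 with plain library size and with the first strand column (Scn4a added, adjusted p = 0.0448 and 0.0126), and 1 to 2 when 1 library was left out.

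Directions reversed for uncalled genes alone. With dCas9, Scn1a was 0.050 with the exon length correction and 0.0055 in the first strand column, Scn2a -0.0050 without a filter and -0.029 in the second strand column, Scn4a -0.022 with limma-voom, Scn8a -0.0019 in the first strand column, and Fgf11 0.011, 0.0044 and 0.014 with plain library size, the 1 CPM filter and the first strand column. With the zinc finger, Scn7a was -0.11 in the first strand column and Ank2 0.039 with the exon length correction. The difference was 0.84 for Scn7a in the first strand column and 0.00026 for Scn8a in the second. Between the controls, Scn2a was -0.036 in the second strand column, and Scn3b 0.086 with plain library size, 0.00010 with all 10 libraries and 0.020 in the second strand column. Leaving out 1 library moved these across 0. With dCas9, Scn1a ran from -0.121 to 0.139, Scn2a from -0.042 to 0.046, Scn4a from -0.412 to 0.273, Scn8a from -0.042 to 0.121, Scn3b from -0.091 to 0.024, Fgf11 from -0.112 to 0.192 and Rest from -0.135 to 0.0012. In the zinc-finger arm, Scn2a ran from -0.073 to 0.289, Scn4a from -0.659 to 0.448, Ank2 from -0.164 to 0.0081 and Ank3 from -0.028 to 0.243. The difference ran from -0.279 to 0.082 for Scn2a, -0.427 to 0.688 for Scn4a, -0.698 to 0.335 for Scn7a and -0.095 to 0.065 for Scn8a. Between the controls, Scn2a ran from -0.051 to 0.186 and Scn3b from -0.032 to 0.022. The causes were not tested.

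With the replicate number as a block, Scn9a was -1.38 with dCas9 and -1.78 with the zinc finger. The block moved the count of called genes from 6 to 262 with dCas9, from 609 to 569 with the zinc finger and from 143 to 429 for the difference, and the counts of called members stayed as reported. It added calls with dCas9 for Ank2, Tbck and Sbno1 (adjusted p = 0.0269, 0.0181 and 0.0356) and with the zinc finger for Sbno1 (0.0478), and Fgf11 lost its call (0.0757). Deviations of same-numbered libraries correlated at 0.238, 0.161 and 0.0397 with dCas9, and those of differently numbered libraries at -0.226 to 0.101. Every dCas9 library but dCas9-empty replicate 3 correlated best with its own number. With the zinc finger the value was 0.0662, a size that all pairs share by construction, so it cannot decide on pairing. The labels give only the number, so whether same-numbered libraries belong together is not known.

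Without a filter 172 genes were called with dCas9, with DESeq2 22 and with all 10 libraries 29. For the zinc finger DESeq2 called 128, all 10 libraries 348 and the strand columns 283 and 275. Leaving out 1 library gave 1 to 34 calls with dCas9 and 201 to 787 with the zinc finger. DESeq2 gave no adjusted p for Scn1a, Scn2a, Scn3a, Scn4a and Scn7a with dCas9, or for Scn4a and Scn7a with the zinc finger. Depth limits Scn4a, Scn7a and, in the zinc-finger arm, Scn1a.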
